A study of Mus with 4 samples.

Results

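The genes described here are 40 nuclear genes whose proteins read out the mitochondrial genome. They comprise 16 mitochondrial aminoacyl-tRNA synthetases, 8 mitochondrial translation factors, 3 enzymes that modify mitochondrial tRNAs, 4 factors of mitochondrial transcription, 6 proteins of the FASTK family, the pair Lrpprc and Slirp, and Hsd17b10, and no ribosomal protein is among them. A gene was taken when its symbol stood in a deposited list of m6A peaks, and 35 of the 40 were found there, among 11431 Ensembl genes with a peak in either list. Those 35 genes carried 57 peaks in the control list and 38 in the knockout list.

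Mitochondria keep a small genome that encodes subunits of the respiratory chain, and every protein that transcribes, processes and translates it is made from nuclear mRNA in the cytosol and imported. TFAM and the polymerase POLRMT start transcription, the long transcripts are cut and stabilised by RNA binding proteins, tRNAs are modified and charged with amino acids, and initiation, elongation and release factors run the mitochondrial ribosome. Brown adipocytes are packed with mitochondria, and their heat production depends on the respiratory chain that this machinery supplies. m6A is a methyl mark on adenosines of mRNA, written in the nucleus by a complex of METTL3, METTL14 and WTAP, so the peaks here lie on the nuclear mRNAs and not on mitochondrial RNA.

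MeRIP-seq was done on interscapular brown adipose tissue (iBAT) of C57BL/6 mice fed normal chow to 8 weeks of age. The control mice were Wtap flox/flox and the knockout mice were Wtap-BKO, that is Wtap flox/flox with a Ucp1-iCre transgene, which deletes Wtap where Ucp1 is active and leaves it in the other cells of the tissue. Fragmented poly(A)+ RNA was precipitated with an m6A antibody, and a peak is a stretch of a transcript with more reads in the precipitate (IP) than its input predicts. Each genotype had 1 IP and 1 input, each pooled from 8 mice, and the authors made 1 peak list per genotype at a false discovery rate under 0.05. There are therefore no replicates in the 2 lists, no test between genotypes was made here, the read depth is unknown, and a gene without a peak may lack m6A, lack transcript or lack reads. In bulk tissue, fewer brown adipocytes and less RNA per brown adipocyte cannot be told apart.

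Each peak is given by its exonic bases, its fold enrichment of IP over input and its false discovery rate on a log10 scale (log10 FDR), which is more negative for a stronger peak. Coordinates are of the mouse build GRCm38, and values in parentheses after a peak are its fold enrichment, log10 FDR and rank. The 2 lists were called separately and share no scale, so a peak was placed within its own list by its rank, the percentage of that list's peaks with a weaker false discovery rate. Peaks of the 2 lists were matched when at least 1 exonic base was common to both on the same strand, and a peak with such a match is called found. The 95% Wilson intervals cover counting error only and take genes or peaks to be independent of each other. The targeted gene, Wtap, had 4 peaks in each list, the strongest at a log10 FDR of -63.1 in the control and -11.3 in the knockout list, and since each peak is set against its own input this is no measure of how much Wtap RNA was left.

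Peaks on these genes were fewer, narrower and, by false discovery rate, placed lower in the Wtap-BKO list. Placement by fold enrichment differed less. Control peaks without any knockout peak were listed for 10 of the 35 genes (28.6%, interval 16.3% to 45.1%), against a background of 15.0% over all genes with a peak. In both lists there were 23 genes (65.7%, interval 49.2% to 79.2%, background 70.1%). Only in the Wtap-BKO list there were 2, Mtrf1 and Hsd17b10 (5.71%, interval 1.58% to 18.6%, background 14.9%). With 35 genes, the interval of the knockout-only share takes in its background and that of the control-only share begins just above it. Peak counts were higher in the control list for 18 genes, higher in the knockout list for 5 and equal for 12, where over all genes 31.3% had fewer and 33.3% had more knockout peaks.

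**Figure D1:**
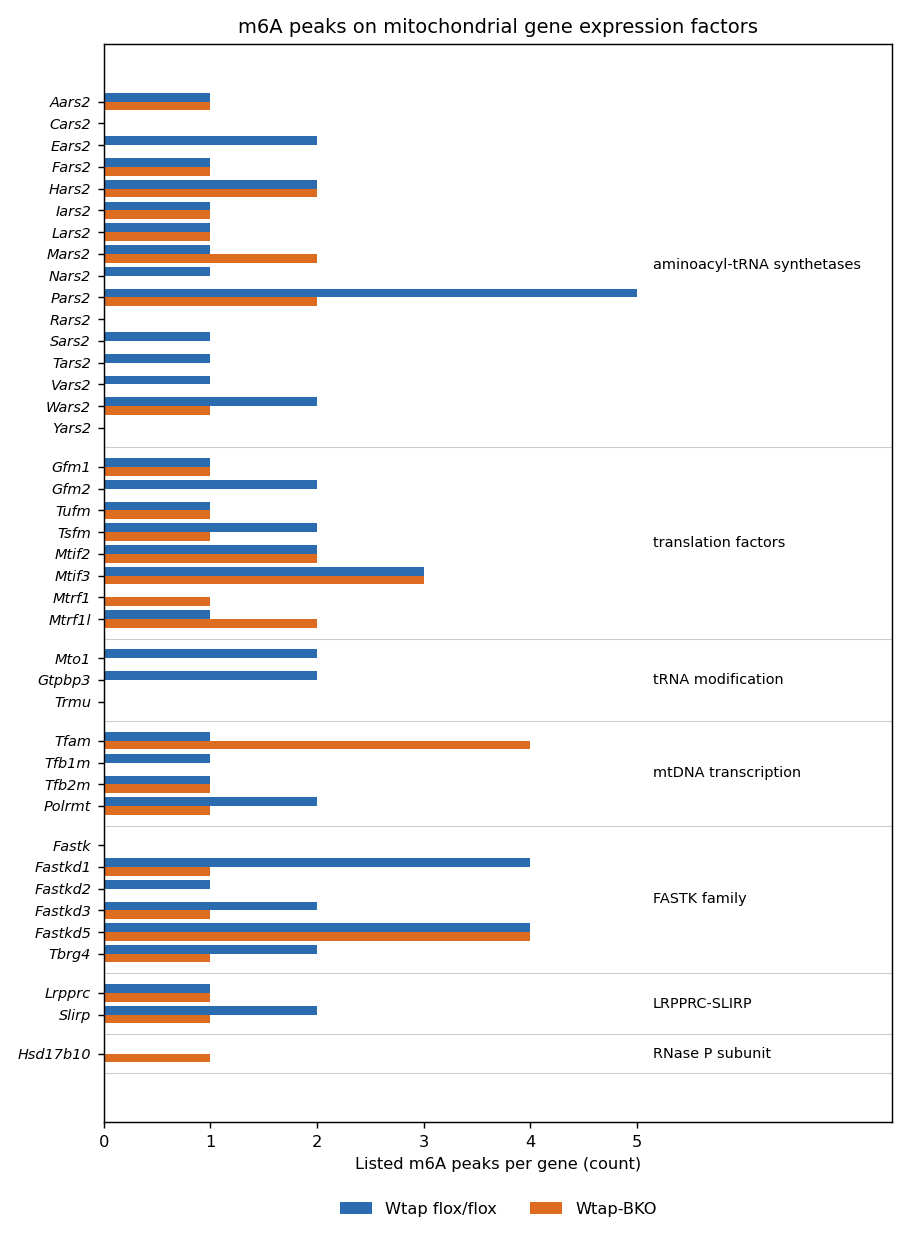
Number of listed m6A peaks (x axis) on each of the 40 genes, grouped by role, with blue bars for Wtap flox/flox and orange bars for Wtap-BKO. Pars2 had 5 control and 2 knockout peaks, Fastkd1 had 4 and 1, and Tfam went the other way with 1 and 4.

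The same held peak by peak. Of the 57 Wtap flox/flox peaks on these genes, 31 had no Wtap-BKO peak on them (54.4%, interval 41.6% to 66.6%), where 32.2% of all control peaks had none. Of the 38 Wtap-BKO peaks, 11 had no Wtap flox/flox peak on them (28.9%, interval 17.0% to 44.8%), near the background of 32.0%. Peaks were then taken by strength, with the opposite list kept whole. Under 1e-5, 17 of 39 control peaks had no match (43.6%, background 20.4%) and 3 of 18 knockout peaks had none (16.7%, background 15.4%). Among control peaks with a false discovery rate under 1e-10, 12 of 30 were not found (40.0%, interval 24.6% to 57.7%, background 14.4%), and these 12 lay on 11 genes. Among knockout peaks under 1e-10, 0 of 9 were not found (interval 0% to 29.9%, background 6.44%), and the strongest knockout peak that was not found, on Tfam, had a log10 FDR of -6.3, against -51.8 on Tsfm for the control list. Under 1e-20 the counts were 7 of 18 control peaks (38.9%, background 10.7%) and 0 of 3 knockout peaks (background 2.47%). The control list as a whole was the stronger one, with 43.1% of its peaks under 1e-10 against 36.2% of the knockout list.

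Whole genes, counted from the same peaks, gave a like picture. A control peak under 1e-5 and no knockout peak at all was seen for 9 of 29 genes (31.0%, interval 17.3% to 49.2%, background 10.4%). Under 1e-10 there were 7 of 25 (28%, interval 14.3% to 47.6%, background 7.16%), namely Nars2, Tars2, Vars2, Gfm2, Gtpbp3, Tfb1m and Fastkd2. In the opposite direction there was 1 of 14 under 1e-5, Mtrf1 (7.14%, background 7.87%), and 0 of 8 under 1e-10 (background 3.36%).

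Over all genes, those with few control peaks more often had no knockout peak, so the genes were also set beside genes with as many control peaks. With 1 control peak, 6 of 17 of these genes had no knockout peak (35.3%, interval 17.3% to 58.7%), against 27.6% of all such genes. With 2 control peaks there were 4 of 12 (33.3%, interval 13.8% to 60.9%), against 10.4%. With 3 or more there were 0 of 4, against 3.40%.

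The aminoacyl-tRNA synthetases join each mitochondrial tRNA to its amino acid. Of the 16, 13 had a peak, 8 of them in both lists and 5 in the Wtap flox/flox list only, and no synthetase had a peak in the Wtap-BKO list only. Over all genes with a peak these shares were 70.1%, 15.0% and 14.9%. The synthetases carried 20 control peaks, of which 10 were not found in the knockout list (50%, interval 29.9% to 70.1%, which takes in the background of 32.2%). They had 11 knockout peaks, all 11 of which lay on a control peak, where 32.0% of all knockout peaks had no control peak on them. Cars2, Rars2 and Yars2, for cysteine, arginine and tyrosine, had no peak in either list.

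The strongest of the control-only synthetase peaks was on Nars2, the asparagine enzyme (ENSMUSG00000018995, plus strand). It covered 330 exonic bases at chr7:97062755-97063084 of GRCm38, with 15.6-fold enrichment and a log10 FDR of -29.0, stronger than 80.7% of the control list. Tars2, for threonine, had 1 peak of 271 bases at chr3:95739976-95740246, with 5.57-fold enrichment and a log10 FDR of -22.5 (rank 75.7%), and its centre lay 137 bases from the 3ʹ end of the gene. Vars2, for valine, had 1 peak of 301 bases at chr17:35656294-35656594 with 4.15-fold enrichment at -12.7 (rank 62.8%), also within 1000 bases of the 3ʹ end. None of these was a marginal call in its list. The other two control-only synthetases had weaker peaks, Ears2, for glutamate, and Sars2, for serine. Ears2 had a peak of 391 bases at chr7:122038650-122039040 (10.5-fold, -5.62, rank 40.7%) and one of 150 bases at chr7:122048411-122048560 (14.2-fold, -2.77, rank 13.9%). Sars2 had 90 bases at chr7:28753543-28753632 (2.25-fold, -2.29), above 6.74% of the list.

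Among the synthetases with peaks in both lists, Fars2, for phenylalanine, carried the strongest control peak of all 40 genes. It covered 391 bases at chr13:36204744-36205134 with 7.51-fold enrichment and a log10 FDR of -135 (rank 97.1%). The knockout peak inside it covered 211 bases with 2.12-fold enrichment and -15.5 (rank 74.8%). Lars2, for leucine, was similar, from 421 bases at chr9:123459618-123461917 (11.8-fold, -94.9, rank 95.2%) to 331 bases at chr9:123461557-123461887 (3.70-fold, -18.7, rank 78.9%). The gap was wider for Aars2, for alanine, whose peak at the 3ʹ end went from 539 bases and rank 79.6% to 270 bases and rank 37.1%. By fold enrichment it went the other way. The value was 7.05 in the control list, above 52.7% of its peaks, and 19.7 in the knockout list, above 94.8%. Hars2, for histidine, went from rank 85.0% to 18.6% at its stronger peak and from 509 to 151 bases. Its weaker control peak lay just upstream of the RefSeq start of the gene and shared bases with a control peak of Hars on the opposite strand, so its source is uncertain.

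Pars2, for proline, had the most control peaks, 5 along a gene of 4214 bases on the plus strand, from chr4:106652278-106652457 to chr4:106654241-106654509. The 2 nearest the 3ʹ end were found in the knockout list, the last at nearly the same rank (71.7% and 70.5%) but with 16.3-fold and 6.42-fold enrichment. The 3 upstream of them were not found, including one of 329 bases at chr4:106653408-106653736 (14.6-fold, -12.8, rank 62.9%). Mars2, for methionine, had 1 control peak of 930 bases at chr1:55238195-55239124 (14.2-fold, -23.7, rank 76.8%). The knockout list held 2 peaks within it, of 421 bases (14.8-fold, -6.13, rank 49.1%) and of 360 bases (37.2-fold, -9.3, rank 61.8%). The exceptions were Iars2, for isoleucine, and Wars2, for tryptophan. The Iars2 peak was wider and stronger in the knockout list (210 bases at -13.6, rank 71.7%) than in the control list (150 bases at -7.7, rank 49.9%). The shared Wars2 peak, with 270 bases at chr3:99216593-99216862 (3.65-fold, -4.18) and 210 bases (4.41-fold, -5.7), had rank 30.4% in the control and 46.4% in the knockout list. A second control peak on Wars2, 120 bases at chr3:99217011-99217130 (3.47-fold, -2.58, rank 11.7%), was not found.

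**Figure D2:**
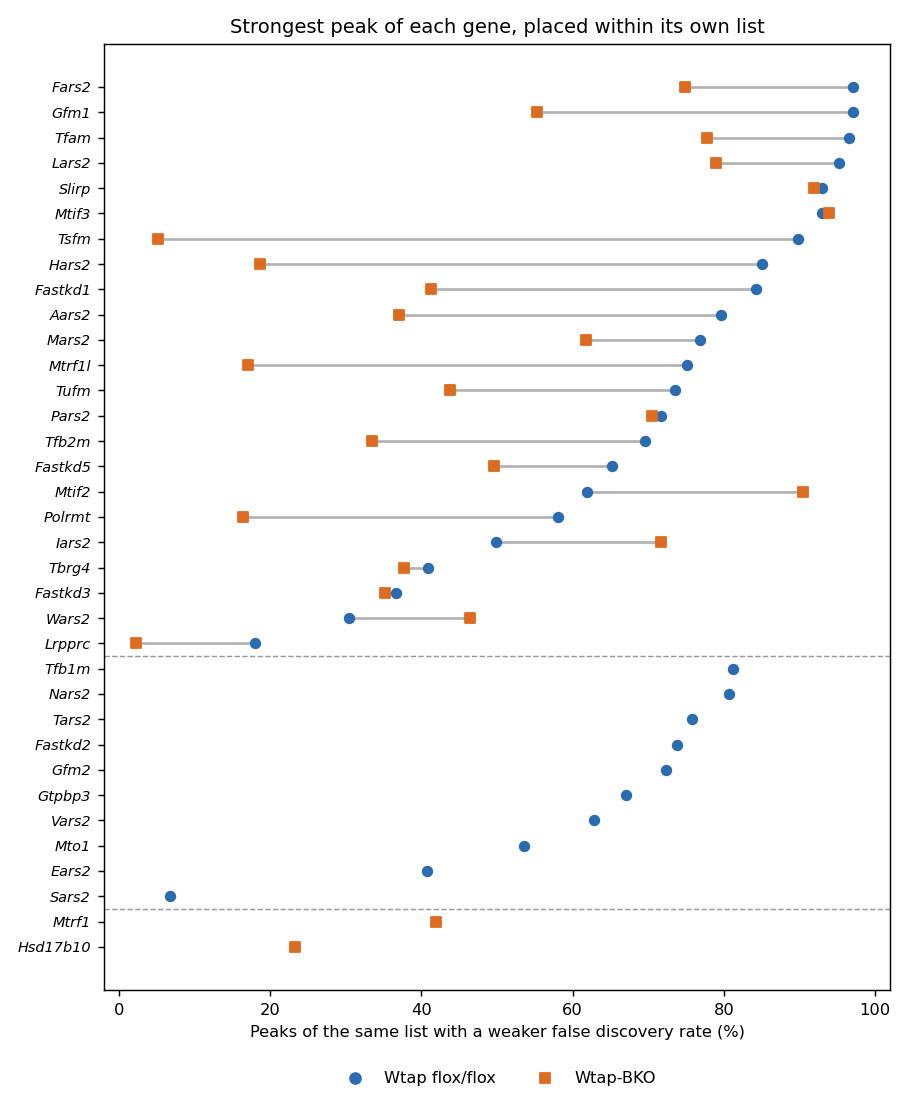
Rank of the strongest peak of each of the 35 genes within its own list (x axis, percentage of that list's peaks with a weaker false discovery rate), as blue circles for Wtap flox/flox and orange squares for Wtap-BKO, with a grey line joining the values of 1 gene. Above the first dashed line are the 23 genes in both lists, 19 of them with the square to the left, then the 10 control-only genes and, at the bottom, the 2 knockout-only genes.

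All 8 translation factors had a peak, 6 of them in both lists (70.1% over all genes), and they carried nearly equal numbers of peaks, 12 in control and 11 in knockout. Of the 12 control peaks, 4 were not found (33.3%, interval 13.8% to 60.9%), near the background of 32.2%. Tsfm, the exchange factor that recharges the elongation factor TUFM with GTP (ENSMUSG00000040521, minus strand), had its main control peak centred 322 bases from the 3ʹ end, 330 bases at chr10:127022489-127022818 with 3.95-fold enrichment and a log10 FDR of -51.8 (rank 89.7%). No knockout peak lay there, and the only knockout peak on the gene, 150 bases at chr10:127029594-127030260 (1.85-fold, -2.08, rank 5.17%), lay toward its 5ʹ end on a control peak of 180 bases (3.75-fold, -3.0, rank 17.3%). Gfm1, the translocation factor, had a control peak of 329 bases at chr3:67474596-67475036 (4.84-fold, -132, rank 97.0%), and the knockout peak inside it had 180 bases (1.79-fold, -7.46, rank 55.3%). Gfm2, which takes part in ribosome recycling, had 2 control peaks and no knockout peak. The stronger covered 450 bases at chr13:97175674-97176123 (3.41-fold, -19.2, rank 72.3%) and the weaker 150 bases near the start of the gene at chr13:97137997-97138146 (9.74-fold, -1.78, rank 1.10%).

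Tufm, which brings charged tRNAs to the ribosome, had 1 peak in each list at opposite ends of the gene. The control peak covered the last 300 bases, chr7:126490432-126490731 on the plus strand, with 2.42-fold enrichment and a log10 FDR of -20.3 (rank 73.5%). The knockout peak was spliced over 2 blocks at chr7:126487361-126487637, its centre 180 bases from the start of the gene, with 7.08-fold enrichment and -5.29 (rank 43.7%).

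The initiation factors had values as high or higher in the knockout list at some peaks. Mtif2, which places the initiator tRNA (ENSMUSG00000020459, plus strand), had 2 peaks in each list, each found in the other. Its upstream peak had 211 bases at chr11:29540596-29540806 in the control list (4.16-fold, -8.67, rank 53.0%) and 271 bases at chr11:29540596-29541345 in the knockout list (7.23-fold, -38.7, rank 90.5%), the widest gap in favour of the knockout among these genes, while its 3ʹ peak had -12.3 (rank 61.9%) and -2.99 (rank 19.7%). Mtif3 kept 3 peaks in each list, and its strongest had nearly the same rank in both. It covered 961 bases at chr5:146954930-146956861 in the control list (9.89-fold, -69.9, rank 92.9%) and 331 bases at chr5:146955530-146956831 in the knockout list (5.05-fold, -55.9, rank 93.9%). A second knockout peak, 511 bases at chr5:146954840-146955350 (17.4-fold, -15.2, rank 74.3%), lay on the same control peak. Together the 2 knockout peaks covered 842 bases, 752 of them within the control peak. The 3ʹ part of Mtif3 runs over Gtf3a, and the strongest control peak shared bases with a Gtf3a peak on the opposite strand, so reads of the pair may not be separable there. One further match on Mtif3 rested on a single shared base.

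The release factors, which end translation at stop codons, differed. Mtrf1l had a control peak of 270 bases at chr10:5813113-5813382 (12.8-fold, -21.9, rank 75.1%), where the knockout peak had 210 bases (3.03-fold, -2.84, rank 17.1%). A second knockout peak, 151 bases at chr10:5817502-5818840 (3.13-fold, -1.98, rank 4.40%), had no control counterpart. Mtrf1 had no control peak and 1 knockout peak of 209 bases over 3 blocks at chr14:79413103-79419257, with 22.8-fold enrichment and a log10 FDR of -5.06 (rank 42.0%).

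The tRNA modification enzymes were the role in which no gene had a knockout peak. Mto1 and Gtpbp3 act together on the wobble uridine of some mitochondrial tRNAs, and each had 2 control peaks. On Gtpbp3 (ENSMUSG00000007610, plus strand) these were 510 bases at chr8:71492663-71493172 with 8.62-fold enrichment and a log10 FDR of -15.2 (rank 67.0%), and 120 bases at chr8:71488373-71488492 (8.62-fold, -2.9, rank 15.5%). On Mto1 they were 241 bases at chr9:78452786-78453026 (3.55-fold, -8.84, rank 53.6%) and 91 bases at chr9:78473866-78473956 (2.20-fold, -3.12, rank 18.9%). Trmu, which adds sulfur to the same uridine, had no peak in either list, so the role rests on 4 control peaks of 2 genes, all 4 without a knockout peak (interval 51.0% to 100%, background 32.2%).

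The transcription factors included the gene with the largest excess of knockout peaks, Tfam, and one with none, Tfb1m. Tfam, which packages the mitochondrial genome and starts its transcription (ENSMUSG00000003923, minus strand), had 1 control peak of 421 bases at chr10:71228162-71228582, with 10.3-fold enrichment and a log10 FDR of -119 (rank 96.5%). The knockout list held a peak of 271 bases wholly inside it, with 3.01-fold enrichment and -17.7 (rank 77.8%), and 3 more peaks along the gene. From the 5ʹ end these were 241 bases at chr10:71237860-71238100 (4.93-fold, -4.03, rank 33.1%), 181 bases over 3 blocks at chr10:71233452-71235312 (3.39-fold, -6.3, rank 50%) and 91 bases at chr10:71226873-71226963 (3.16-fold, -1.48, rank 0.326%). Covered bases on Tfam thus went from 421 to 784, while the peak both lists share was narrower and lower in the knockout list.

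Tfb1m, the methyltransferase of the small ribosomal RNA, had a single control peak of 325 bases at chr17:3519381-3519705, with 20.5-fold enrichment, the highest of any control peak on these genes, and a log10 FDR of -29.7 (rank 81.2%). It had no knockout peak, and its position also falls within the RefSeq span of Tiam2. Tfb2m, which opens promoters for the polymerase, had its peak near the 5ʹ end in both lists, at -17.0 (rank 69.5%) and -4.06 (rank 33.5%). Polrmt, the polymerase itself, had 239 bases at chr10:79739210-79739448 in the control list (4.65-fold, -10.6, rank 58.0%) and 151 bases within them in the knockout list (2.31-fold, -2.76, rank 16.4%). Its second control peak, 180 bases at chr10:79739598-79739777 (2.52-fold, -3.47, rank 23.1%), was not found.

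**Figure D3:**
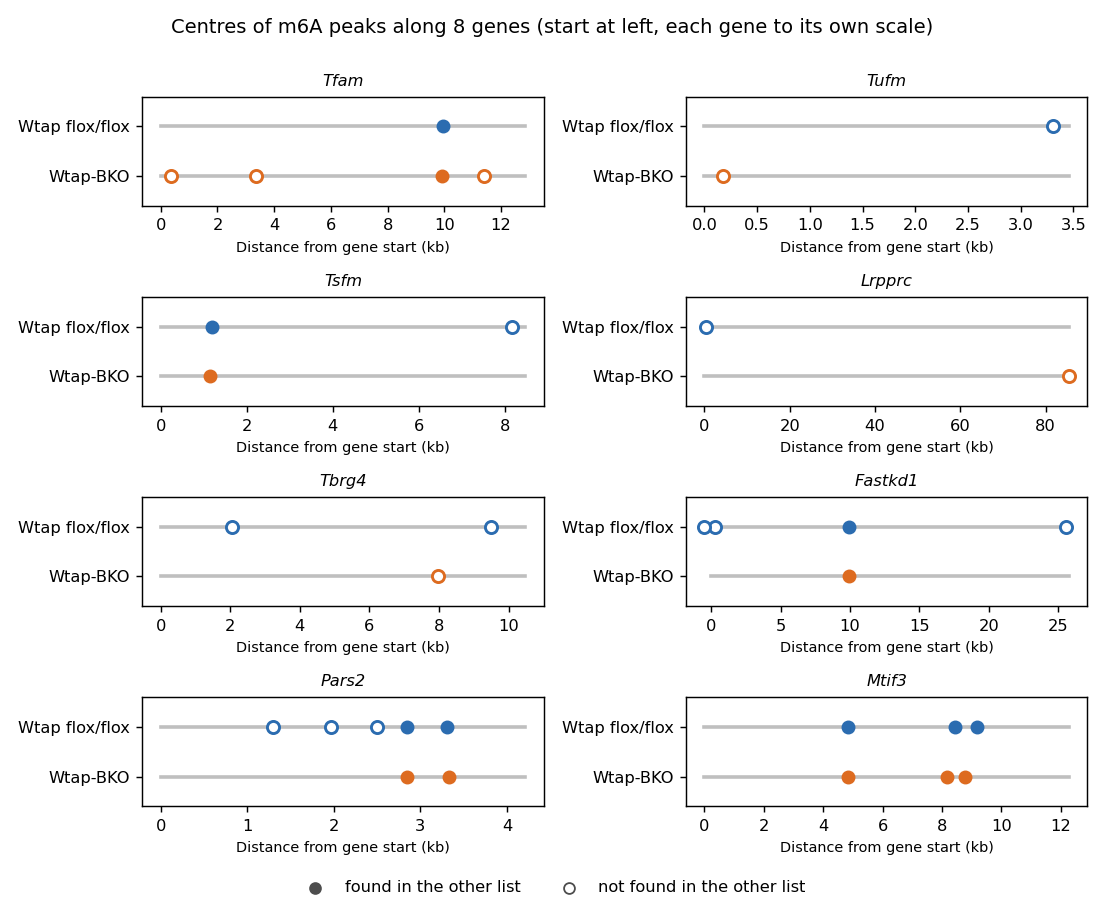
Centres of m6A peaks along 8 genes, as distance from the gene start in kb (x axis, RefSeq span as a grey line, each gene to its own scale), with Wtap flox/flox in blue above Wtap-BKO in orange. Filled circles are peaks found in the other list and open circles are not, and Tufm, Lrpprc and Tbrg4 show open circles only.

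The FASTK family, RNA binding proteins that act on the processing and stability of mitochondrial transcripts, had 13 control peaks of which 9 were not found in the knockout list (69.2%, interval 42.4% to 87.3%, background 32.2%). With the overlapping double entries of Fastkd5 merged this was 8 of 11 (72.7%, interval 43.4% to 90.3%). Fastkd1 (ENSMUSG00000027086, minus strand) had 4 control peaks and kept 1, which went from 240 bases at chr2:69702586-69702825 (3.27-fold, -14.9, rank 66.7%) to 150 bases (2.62-fold, -4.94, rank 41.3%). Of the 3 not found, the strongest lay at the 3ʹ end, 329 bases over 2 blocks at chr2:69686875-69690125 with 6.02-fold enrichment and a log10 FDR of -35.5 (rank 84.2%), and the others, 240 bases at chr2:69712172-69712411 (4.19-fold, -15.9, rank 68.0%) and 269 bases at chr2:69712949-69713217 (3.20-fold, -9.61, rank 55.7%), lay at or just beyond the annotated 5ʹ end. Fastkd2, which is needed for assembly of the mitochondrial ribosome, had 1 control peak of 301 bases at chr1:63731771-63732071 (5.75-fold, -20.6, rank 73.8%) and no knockout peak.

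The other genes of the family were mixed. The main peak of Fastkd3 had like ranks, with 301 bases at chr13:68584411-68584711 in control (9.37-fold, -4.96, rank 36.6%) and 211 bases in knockout (17.4-fold, -4.25, rank 35.2%). A second control peak, 150 bases at chr13:68583783-68583932 (8.24-fold, -2.71, rank 12.6%), was not found. Tbrg4 (also called FASTKD4) had 2 control peaks of 180 bases, at chr11:6623931-6624110 (1.99-fold, -5.67, rank 40.9%) and chr11:6616492-6616671 (1.64-fold, -2.47, rank 9.40%). Its knockout peak of 150 bases lay between them at chr11:6618050-6618199 (1.67-fold, -4.51, rank 37.7%), and none of the 3 overlapped. Fastkd5 was listed with 4 peaks in each list, but these are overlapping pairs of entries on 1 gene, in effect 2 sites, and its upstream pair also shared bases with a listed peak of Ubox5 on the same strand. At the downstream site the stronger entries had -14.1 in control and -6.19 in knockout. Fastk itself had no peak.

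Lrpprc and Slirp form a complex that stabilises mitochondrial mRNAs. Lrpprc had 1 weak peak in each list at opposite ends of the gene, 150 bases at -3.1 in the control list with its centre 281 bases from the start, and 121 bases at -1.79 in the knockout list with its centre 120 bases from the end. Slirp had a peak of 508 bases with the same borders in both lists, chr12:87450177-87450684, at -70.3 (8.37-fold, rank 93.0%) and -44.5 (5.51-fold, rank 91.9%). It lay beyond the RefSeq end of Slirp and shared bases with a peak of Snw1 on the opposite strand, so it may not belong to Slirp. The other Slirp peak, 150 bases at chr12:87443896-87447582 (3.75-fold, -5.94, rank 42.2%) over 2 blocks at the start of the gene, was in the control list only and shared bases with a peak of Alkbh1 on the opposite strand. Hsd17b10, a dehydrogenase that is also a subunit of the mitochondrial enzyme cutting tRNA ends, had 1 knockout peak of 149 bases at chrX:152001874-152002236 (15.9-fold, -3.24, rank 23.3%) near its start and no control peak.

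Where a peak was found in both lists, it was as a rule narrower and, by false discovery rate, lower in the knockout list. Of 26 shared control peaks on these genes, 22 had fewer exonic bases in the knockout peaks on them (84.6%, interval 66.5% to 93.8%), against 46.8% of all shared control peaks. The 4 others were the identical Slirp peak and the wider knockout peaks on Iars2, Mtif2 and the match of 1 base on Mtif3. By rank, 21 of the 26 were lower in the knockout list (80.8%, interval 62.1% to 91.5%), against 43.6% of all shared control peaks. Asked from the knockout side, 23 of 27 shared knockout peaks had a higher-ranked control peak on them, against 48.0% over all. This counts the same overlaps from the other side and is not a separate result. The median rank of the 26 was 68.1% in the control list and 48.0% for the strongest knockout peak on each, where the medians over all shared control peaks were 60.8% and 65.4%.

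Rank by fold enrichment showed less of a difference. By that measure 15 of the 26 were lower in the knockout list (57.7%, interval 38.9% to 74.5%), near the background of 48.6%. The part of read depth in either ranking was not tested.

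**Figure D4:**
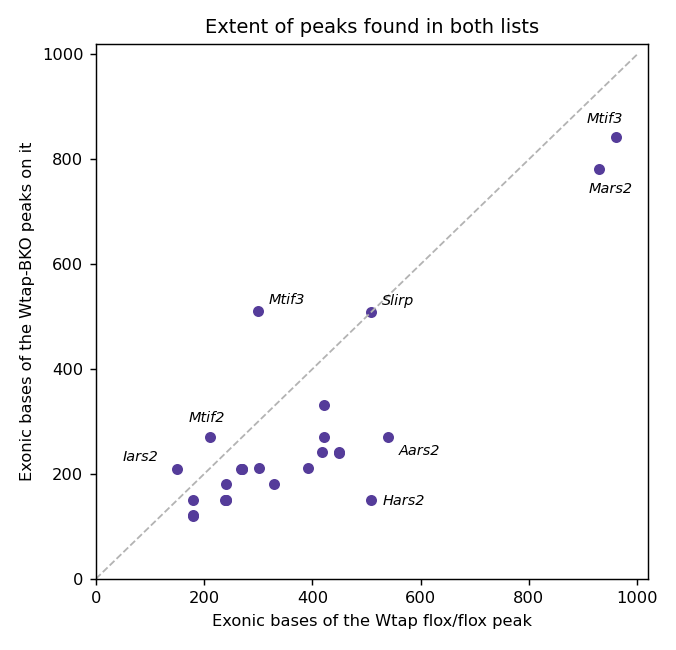
Exonic bases of each of the 26 shared Wtap flox/flox peaks (x axis) against those of the Wtap-BKO peaks on it (y axis), with the dashed line marking equal extent. In all, 22 points lie below the line, the Slirp point lies on it and 3 points lie above.

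Summed per gene, 19 of the 23 genes with peaks in both lists had fewer exonic bases under knockout peaks (82.6%, interval 62.9% to 93.0%, background 53.2%). The strongest peak of the gene was lower in rank in the knockout list for 19 of 23 as well, against 48.2% of all genes with peaks in both lists. It was lower by more than 20 percentage points for 10 of 23, against 17.1% of all genes with peaks in both lists. It was higher by as much for 2 of 23, Mtif2 and Iars2, against 1376 of 8014. Over all 40 genes, control peaks covered 16377 exonic bases and knockout peaks 8031. Bases were not summed over the whole lists, whose median peak had 240 exonic bases in control and 210 in knockout.

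The share of peaks near the 3ʹ end was compared with that over all peaks, and it depended on the window. Among control peaks inside genes spanning at least 3000 bases, 17 of 53 had their centre within 1000 bases of the 3ʹ end (32.1%, interval 21.1% to 45.5%), against 21.7% of all control peaks. In the knockout list there were 9 of 33 (27.3%, interval 15.1% to 44.2%), against 19.3%. Both intervals take in the share over all peaks. Within 500 bases the shares were 20.8% in control (interval 12% to 33.5%, all control peaks 11.5%) and 15.2% in knockout (all knockout peaks 9.83%). Within 2000 bases they were close to those over all peaks, 39.6% against 37.5% in control and 36.4% against 34.0% in knockout. Peaks near the 3ʹ end were not found in the knockout list in 9 of 17 cases (52.9%, interval 31.0% to 73.8%, background 37.9%). Peaks farther away were not found in 21 of 36 (58.3%, interval 42.2% to 72.9%, background 29.3%). The first interval takes in its background and the second lies above it. In 3 genes with peaks in both lists, Tufm, Tbrg4 and Lrpprc, no control peak was found in the knockout list (13.0%, interval 4.54% to 32.1%, background 6.13%).

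Other genes of the same and of like processes gave similar control-only shares of genes. Of 54 other genes of mitochondrial gene expression with a peak, such as nucleases, rRNA methyltransferases and ribosome assembly factors, 15 had peaks in the control list only and 0 in the knockout list only, with Eral1 (-49.1) and Rcc1l (-41.8) the strongest. Of 65 mitochondrial ribosomal protein genes, 21 had control peaks only, led by Mrpl53 at -156, and 2 had knockout peaks only. Of 18 cytosolic and shared aminoacyl-tRNA synthetases, 5 had peaks in the control list only (27.8%) and 2 in the knockout list only (11.1%). Of the 13 mitochondrial ones these were 5 and 0. The control-only peaks of the cytosolic and shared enzymes were weaker, at most -10.3 on Hars. Control peaks not found made up 44.0% for the other mitochondrial genes, 49.4% for the ribosomal proteins and 37.0% for the cytosolic and shared enzymes. For the genes described this was 54.4%, and for all control peaks 32.2%. Under 1e-10 the related lists had 9 of 42, 23 of 50 and 1 of 7 not found, in the same order. The genes described had 12 of 30, and all control peaks 14.4%. No difference between these lists was tested.

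**Figure D5:**
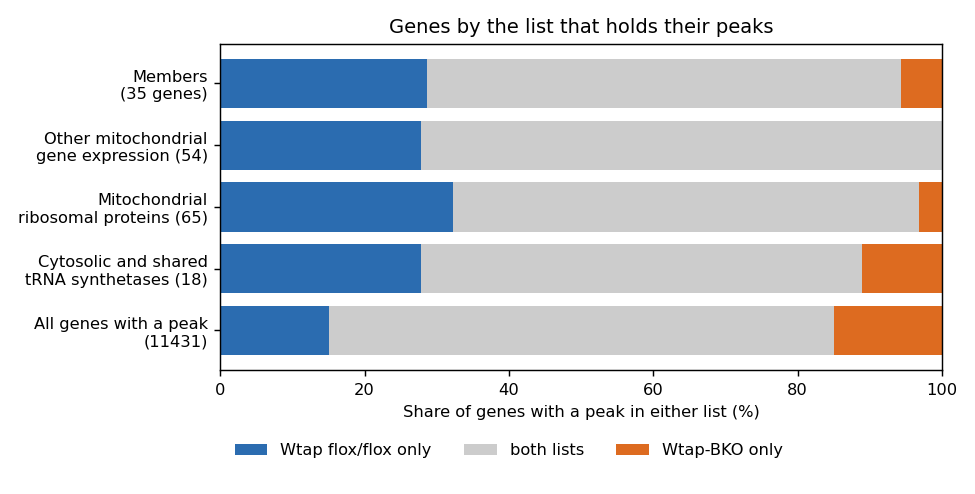
Share of genes with a peak in either list (x axis, %) whose peaks stood in the Wtap flox/flox list only (blue), in both (grey) or in the Wtap-BKO list only (orange), for the 35 genes, 3 related lists and all genes, with the number of genes in parentheses. The control-only share was 28.6% for the 35 genes, 27.8%, 32.3% and 27.8% for the related lists and 15.0% for all genes.

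Markers of cell types were counted in the same way. Brown adipocyte markers carried 59 control and 48 knockout peaks on 20 of 20 genes. Of these genes 2 had control peaks only (10%, all genes 15.0%). Of their control peaks 30.5% were not found (all control peaks 32.2%). Macrophage markers carried 20 and 38 on 16 of 20 and T/B lymphocyte markers 5 and 14 on 10 of 20. Fibroblast markers carried 18 and 26 on 13 of 14 and skeletal muscle markers 6 and 20 on 13 of 20. No gene of these 4 lists was in the control list only. Knockout peaks only were seen for 5 of 16 macrophage (31.2%) and 6 of 10 lymphocyte markers (60%). For fibroblast and muscle markers they were seen for 1 of 13 (7.69%) and 7 of 13 (53.8%). Over all genes the share was 14.9%. The part of cell composition and of transcript level in the peaks described above was not tested.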

How the data were processed

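The data are 2 lists of m6A peaks, 1 per genotype, each from 1 pooled IP and 1 pooled input, so the groups are the 4 labelled samples and the only comparison is between the lists. Per the labels, the submitters' processing notes name fastp 0.19.11, BWA 0.7.12, HOMER 4.9.1 and GRCm38.p6. The methods name MACS2 for the peaks, while the lists have spliced blocks. In each list the authors deposited a p-value, its log10 and the log10 false discovery rate (both treated as scores), and a ratio, the fold enrichment of IP over input, whose scaling is not given in the sources used here. Read totals are not given, so the depth per sample and its precision are unknown.

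Peaks were matched by shared exonic bases in Python 3.11.15 with numpy 2.4.6, pandas 2.3.3, scipy 1.17.1, and figures used matplotlib 3.10.9. Starts are 1-based. The match was run on simulated data, where copies of the 18400 control peaks were kept, shortened or removed, and 18400 were called right. The score asked only whether a peak met its own copy. A removed peak has no copy and was counted right by construction, so false matches were not tested. Distances to gene ends used the RefSeq gene table of GRCm38.p6, which held all 40 genes and has no strand or exons. Percentages over all genes or peaks include the genes described. The genes, lists and alternatives were chosen with earlier results of these data known. All 40 genes are named, with positions and values for genes in 1 list only, the 5 with the strongest peak in each list, those whose peak number differs and those with an unmatched peak under 1e-5, and of each related list at most 3 genes per direction. Stricter thresholds, other overlap rules, removal of overlapping genes, other windows and ranking by fold were tried. No genome sequence was used here, so peak sequences and motifs are not shown.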

Additional observations from a re-analysis of the deposited data

How the results depend on the processing

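Of 35 alternative values, 20 stayed within 1.5 times of the reported count. With both lists limited to peaks under 1e-5, genes in the control list only went from 10 to 17 and genes in both from 23 to 12, and knockout peaks without a control peak went from 11 to 4. With both limited to 1e-10 these were 18, 7 and 2, and genes in the knockout list only went from 2 to 1, Iars2, whose control peak is weaker than that. The genes with a peak were then 31 and 26, the control-only shares 54.8% (all genes 20.6%) and 69.2% (26.9%), and the knockout-only shares 6.45% (14.5%) and 3.85% (14.0%). A gene can leave a list here because its peak there is weak. When only the query peaks were limited and the opposite list was kept whole, control peaks not found went from 31 to 17 under 1e-5 and 12 under 1e-10, and knockout peaks from 11 to 3 and 0, where the fewer peaks searched lower the count. Asking only for any peak on the same gene left 14 control and 2 knockout peaks. A window of 500 bases left 11 control and 5 knockout peaks near the 3ʹ end. The search under 1e-10 and the merging of overlapping entries of 1 gene were added after the data were seen. Leaving out peaks that share bases with another gene, asking for 50% of the bases and merging entries moved no count by more than 1.5 times. No replicate could be left out. No paired analysis was possible because each genotype has 1 pooled IP and 1 pooled input and the values come from no test. Unknown depth limits every absence, since a peak not listed may be a peak with too few reads.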
